A study of Mus musculus with 3 samples.

Results

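The stefin A family was described by 5 mouse genes, Stfa1, Stfa2, Stfa2l1, Stfa3 and Cstdc5, of the 16742 genes listed in any library. The members were matched by NCBI Gene ID and were chosen because of their measured levels in these libraries, so the levels below are a description and carry no test. RNA-seq was available for 3 libraries, 1 per group, each made from bone marrow cells pooled from 3 mice of 6 to 8 weeks. The control library came from lin- bone marrow cells of C57BL/6 wild-type mice. Both TR libraries, TR1 and TR9, came from GFP+ bone marrow cells of leukemia mice of the third transplant generation that carried TBLR1-RARα (TR), a fusion of TBLR1 with the retinoic acid receptor α found in acute promyelocytic leukemia (APL). Each TR line went back to 1 primary mouse, whose lin- donor cells had been transduced with the pMSCV-TR-IRES-GFP retrovirus and given to lethally irradiated recipients. Control cells came from healthy mice, were isolated by lineage depletion and were not transduced, and TR cells were sorted on GFP. The fusion gene, the vector, the leukemia, the serial transplantation and the way of isolation therefore cannot be told apart. With 1 library per group, no difference had a replicate check.

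Stefins, also called type 1 cystatins, are small proteins of the cytosol that lack a signal peptide. They bind tightly and reversibly to papain-like cysteine proteases, the cysteine cathepsins, and block the active site, which is thought to protect the cell from cathepsins that leak out of lysosomes. The mouse carries a cluster of stefin A genes where the human genome has a single gene, CSTA. Stefin A proteins are known from skin and from myeloid cells, among them neutrophils.

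Of the 5 members, 4 were listed in any library, and all reads but 4 came from TR9. Over the family, the control library had 0 expected counts (the read number that RSEM estimates for each gene), TR1 had 4 and TR9 had 118. Cstdc5 held 83.5% of the TR9 reads (95% exact binomial interval 76.0% to 90.0%) and Stfa1 held 14.8% (8.62% to 22.1%). Stfa2l1 and Stfa3 were at the level of single reads, and Stfa2 was listed nowhere. Intervals cover counting error only.

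The members lie in 1 cluster on chromosome 16. In GENCODE M21, on the GRCm38 build and not on the mm9 build of the libraries, Stfa2l1 spans chr16:36156811-36161953 and Stfa1 spans chr16:36276951-36285373, both on the plus strand. Cstdc5, named BC100530 there, spans chr16:36359382-36367748, Stfa2 spans chr16:36403992-36408457 and Stfa3 spans chr16:36450537-36455392, all on the minus strand. Each is a protein-coding gene of 3 exons, with a coding length of 294 bases in Stfa1 and Cstdc5 and of 312 bases in Stfa2, Stfa2l1 and Stfa3. An antisense gene, Gm15845, overlaps Cstdc5, and since no source used here states that strand was counted, reads of the 2 genes cannot be told apart.

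The coding sequences of Cstdc5 and Stfa1 are shown because these 2 genes hold nearly all reads of the family and are nearly the same. Of their 294 coding bases, 288 are identical (98%) and 6 differ, without a gap. The sequences were taken from GENCODE M21 transcripts, 5′ to 3′, in pieces of 150 and 144 bases, and capitals mark the differing bases.
Cstdc5, bases 1 to 150: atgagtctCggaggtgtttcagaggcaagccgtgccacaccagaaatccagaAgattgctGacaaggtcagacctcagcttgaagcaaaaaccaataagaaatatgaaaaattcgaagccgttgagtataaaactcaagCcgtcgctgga
Stfa1, bases 1 to 150: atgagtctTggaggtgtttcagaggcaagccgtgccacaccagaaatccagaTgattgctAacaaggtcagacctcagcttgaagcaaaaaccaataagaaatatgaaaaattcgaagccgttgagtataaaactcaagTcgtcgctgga
Cstdc5, bases 151 to 294: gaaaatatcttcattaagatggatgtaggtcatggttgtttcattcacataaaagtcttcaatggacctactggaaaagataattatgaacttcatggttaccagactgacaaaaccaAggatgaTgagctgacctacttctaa
Stfa1, bases 151 to 294: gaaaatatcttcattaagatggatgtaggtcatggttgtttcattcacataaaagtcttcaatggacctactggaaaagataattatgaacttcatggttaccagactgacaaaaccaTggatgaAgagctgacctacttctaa
Of the 6 differing bases, 4 fall in the first piece and 2 in the second, so long stretches in between are the same in both genes.

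This likeness bears on the counts. Of all 50-base windows of the Cstdc5 transcript, 33.5% occur letter for letter in another compared transcript of the cluster, and 23% occur in Stfa1. For Stfa1 the share was 26.9%, for Stfa2l1 16.8% and for Stfa2 14.7%, while no 50-base window of Stfa3 was shared. The windows come from GENCODE M21 transcripts of 619 bases (Cstdc5) and 617 bases (Stfa1). The deposited lengths are 453 and 418 bases, so the shares may differ for the gene models that were counted. Cstdc3 and Gm7260 of the cluster were not compared. A read from a shared window has no single origin, and RSEM divides it between the genes in fractions. The TR9 counts of Cstdc5 (98.52) and Stfa1 (17.48) were each not whole but added up to 116, so the sum does not rest on that division while the single values do. How many of the 17.48 counts were reads of Stfa1 was not tested.

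**Figure D1:**
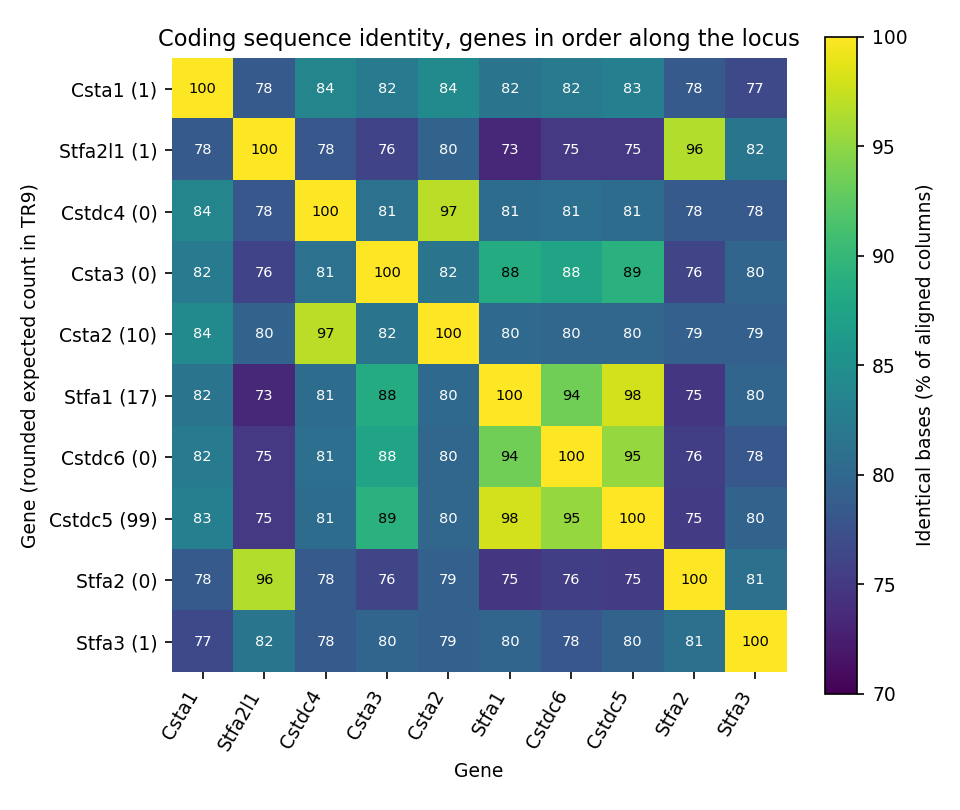
Identity of the coding sequences between 10 genes of the cluster, in their order along the chromosome, as the percentage of aligned columns with the same base (colour and printed value), with the rounded expected count in TR9 beside each gene on the vertical axis. Cstdc5 and Stfa1, with 98% identity, are also the 2 genes with the highest counts, and Cstdc6, at 95.2% identity to Cstdc5, had none.

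Among the members, identity ranged from 73.4% between Stfa1 and Stfa2l1 to the 98% of Cstdc5 and Stfa1, as the plot of coding identity shows. Stfa2 and Stfa2l1 formed the other close pair, with 96.5% of bases identical and 11 differing. Neither of these 2 genes passed 1 count in any library. Among the genes compared, which did not include Cstdc3 and Gm7260, the closest relative of Cstdc5 after Stfa1 was Cstdc6. This neighbour, with 95.2% identity, was listed nowhere.

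Cstdc5 had no count in control, 3 counts in TR1 (95% exact Poisson interval 0.62 to 8.77) and 98.52 in TR9 (80.5 to 121). It is a cystatin-domain gene of the stefin A cluster. Its FPKM, the level per gene length and library total, was 1.27 in TR1 and 45.25 in TR9. TR9 alone was high, and as the gene was chosen on these values, the intervals of TR1 and TR9 are description only. Against control, where a count of 0 allows up to 3 counts or 0.547 CPM (counts scaled to the library total), the TR9 level was at least 35.1-fold higher when control was set to 3 counts, and the exact 95% interval of the ratio began at 28.2-fold. Against TR1 it was 35.7-fold higher, a log2 ratio of scaled counts of 5.16 (3.57 to 7.47).

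Stfa1, which encodes a stefin A protein, was at 0 counts in control and TR1 and at 17.48 in TR9 (9.90 to 27.2), with an FPKM of 8.76. The TR9 level was at least 6.23-fold higher than in control and at least 6.33-fold higher than in TR1, each with the lower library set to 3 counts. The exact 95% intervals of these ratios began at 4.42-fold and 4.48-fold. Stfa1 thus had the same order of libraries as Cstdc5, within the limit that shared reads set.

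The other members gave next to no reads. Stfa2l1, a near copy of Stfa2, had 0 counts in control and 1 in each TR library, with an FPKM of 0.47 in TR1 and 0.51 in TR9. Stfa3 had 1 count in TR9, an FPKM of 0.51, and none elsewhere. Stfa2 had no count in the 3 libraries. A count of 1 has a Poisson interval of 0.025 to 5.57, so the levels of Stfa2l1, Stfa3 and Stfa2 could not be told apart at this depth.

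**Figure D2:**
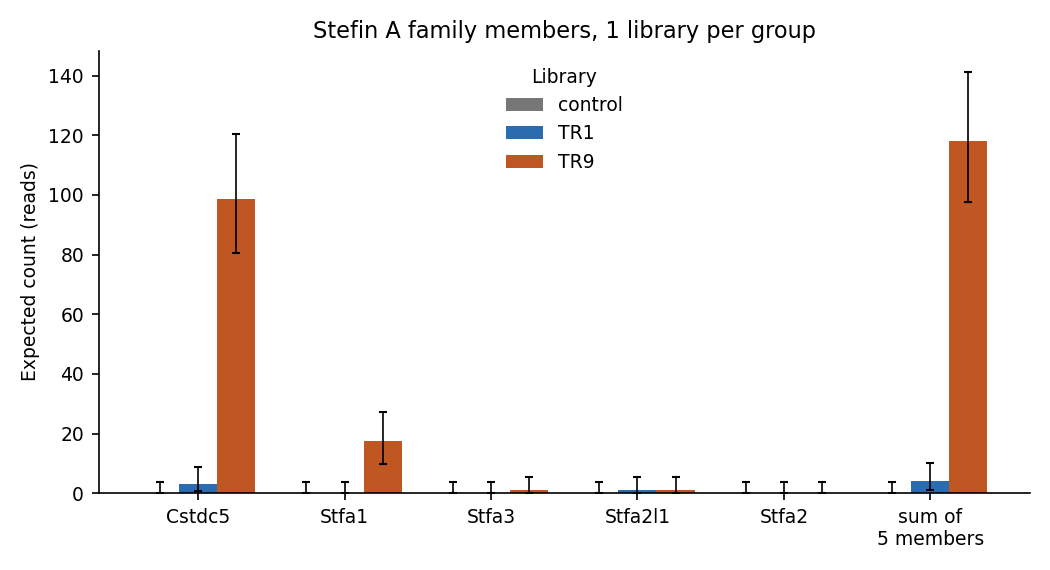
Expected counts of the 5 members and of their sum (vertical axis, reads, linear from 0) in the control, TR1 and TR9 libraries, with 95% exact Poisson intervals as error bars. The TR9 bars of Cstdc5 (98.52), Stfa1 (17.48) and the sum (118) stand apart, and every other bar is at 4 counts or fewer.

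Ordered by FPKM within TR9, Cstdc5 came first and Stfa1 second, though their counting intervals do not cover the division of shared reads between them. The remaining members followed at single reads. Cstdc5 ranked 1728 of the 14817 genes listed in TR9, above 88.3% of them, whereas in TR1 it stood above 27.6% of 14642. Stfa1 was above 52.1% of the listed genes in TR9, and Stfa2l1 and Stfa3 were each above 18.6%.

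The family sum does not depend on how reads were divided among members. It was at least 42.1-fold higher in TR9 than in control set to 3 counts, with an exact 95% interval from 33.7-fold, and 32.0-fold higher than in TR1, a log2 ratio of 5.0 (3.61 to 6.90). For the 4 counts in TR1 against 0 in control the exact interval of the ratio began at 0.65, so no difference between TR1 and control was detectable. With all other listed stefin genes but Cstb added, the sums were 0, 7 and 129 counts in control, TR1 and TR9. For this wider sum the exact interval of the ratio of TR1 to control began at 1.42, so the reading of TR1 depends on which stefin genes are summed.

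A gene was called between libraries when a conditional exact Poisson test on rounded counts gave a false discovery rate of at most 0.001 over all genes and the log2 ratio of FPKM was at least 1 in either direction. This call compares the reads of 2 libraries, not the conditions, and both comparisons against control share that library. In TR1 against control, 0 of the 2 members listed were called, where 8.09% of all genes tested were called higher and 13% lower. In TR9 against control, Cstdc5 and Stfa1 were called higher, 2 of the 4 members listed, where 9.37% of all genes were called higher and 10.8% lower. The same 2 were called higher in TR9 against TR1, where 4.34% of all genes were called higher and 2.31% lower. As the members were chosen on these values, nothing is read from those shares. Under an alternative test that assumes variation between replicates, edgeR's exact test with a coefficient of variation of 0.2, the call of Stfa1 was lost in both comparisons and that of Cstdc5 was kept.

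Absence from control was common. In all, 1440 genes had no count in control and were listed in TR1 or TR9, and 1001 of these were listed in TR9. Of them, 19 had a TR9 count at or above that of Cstdc5, Cstdc5 included. Of the 19, 2 had 3 counts or fewer in TR1, Cstdc5 and Umodl1, the latter with 0, 2 and 193 counts in control, TR1 and TR9. Both limits are the values of Cstdc5 itself, so nothing is read from this number, and Minar1, with 0, 8 and 739 counts, lay just past the second. Umodl1 and Minar1 were named after their values were seen.

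**Figure D3:**
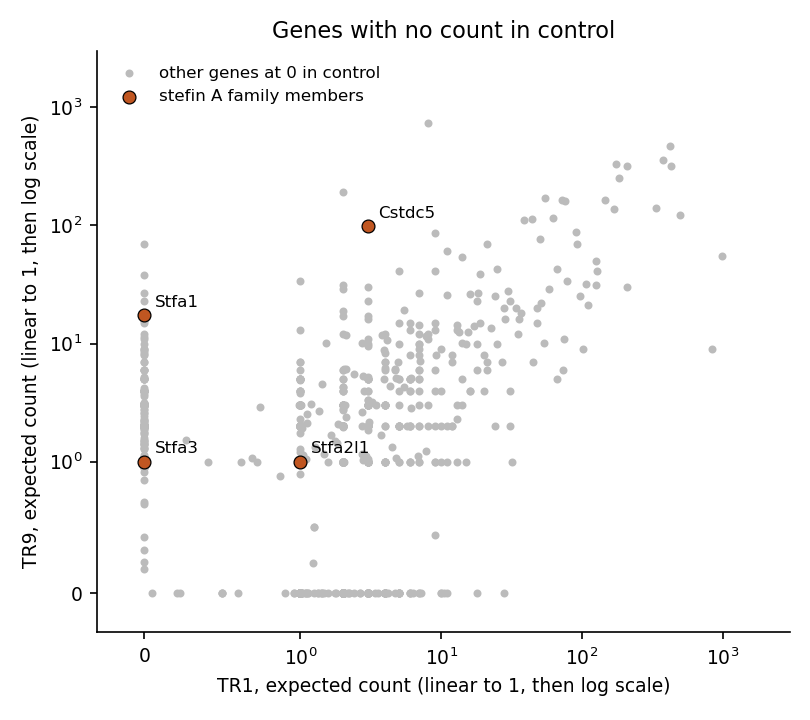
Expected counts in TR1 (horizontal axis) and TR9 (vertical axis) of the 1440 genes with no count in control, both axes linear up to 1 and logarithmic above, with the 4 listed stefin A members marked. Cstdc5, at 3 and 98.52 counts, lies high on the left, Stfa1 lies on the TR1 value of 0, and Stfa2l1 and Stfa3 lie at 1 count in TR9.

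The 10 genes whose pattern was most like the family sum were found by the distance between pairs of log2 ratios, TR1 and TR9 each against control, over 3 libraries and the 7781 genes that reached 10 FPKM somewhere. Counts under 3 were set to 3. The nearest was Lipn, a lipase gene, with 1, 2 and 88 counts in control, TR1 and TR9. Plagl1, a zinc finger transcription factor, followed with 7, 4 and 370 counts, and Strc, the gene of stereocilin, with 2, 1 and 310. Ghr, the growth hormone receptor, had 7, 30 and 222 counts. The others, in order, were 5830432E09Rik, Ly6i, Alcam, Trim43c, Fkbp6 and 9030619P08Rik. Their distances ran from 0.59 for Lipn to 2.04 for 9030619P08Rik, and with counts under 10 set to 10 the list kept 4 of the 10 genes.

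Of 10 other stefin genes, within and outside the cluster, 3 were listed. Csta2 had 0, 3 and 10 counts in control, TR1 and TR9, the same order of libraries as Cstdc5, with an FPKM of 3.89 in TR9. Its log2 ratio of counts between TR9 and TR1 was 1.86 (-0.10 to 4.36), and it was not called in any comparison. Csta1 had 1 count in TR9. Csta3, Cstdc3, Cstdc4 and Cstdc6, which lie among the members, had none.

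Cstb, the gene of stefin B, behaved otherwise. It is the broadly expressed stefin and lies outside the cluster. It had 77 counts in control (60.8 to 96.2), 207 in TR1 (180 to 237) and 252 in TR9 (222 to 285), with FPKM of 23.63, 62.42 and 82.65. Cstb was called higher in both TR libraries, by a log2 ratio of counts of 1.41 (1.02 to 1.80) in TR1 and 1.81 (1.43 to 2.20) in TR9. Between TR9 and TR1 it was not called, at 0.40 (0.13 to 0.68). Per length, stefin B in TR9 (82.65) stood above Cstdc5 (45.25), and in control and TR1 it was the only stefin with more than 3 counts.

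The neighbours were the 10 protein-coding genes on either side of the stretch that holds the members, Csta1 among them, and 18 of the 20 were listed. In TR1 against control 1 was called higher and 3 lower, where 8.09% and 13% of all genes were. In TR9 against control 1 was called higher and 2 lower, close to the 9.37% and 10.8% of all genes. In TR9 against TR1 none was called by the Poisson test in either direction, where 4.34% and 2.31% of all genes were. Polq, a DNA polymerase gene, was lower in both TR libraries, with 649, 279 and 222 counts in control, TR1 and TR9 and log2 ratios of FPKM of -1.22 and -1.44.

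In the RefSeq promoter table (GRCm38.p6, 250 bases before to 50 after the start), all 5 members had a window. The 30 bases printed here, 5′ to 3′ on the strand of the gene, end with the longest word that all 5 members share in the 100 bases before the start, which is in capitals. They are shown because Cstdc5 and Stfa1, the members with reads, and Stfa2, Stfa2l1 and Stfa3, the members with next to none, hold it alike.
Cstdc5, chr16:36367571-36367600, minus strand: gaggaggagtttacagatACCTTTAAAACC
Stfa1, chr16:36277097-36277126, plus strand: gaggaggagctttcggatACCTTTAAAACC
Stfa2, chr16:36408384-36408413, minus strand: gaggaggagcttacagaaACCTTTAAAACC
Stfa2l1, chr16:36156757-36156786, plus strand: gaggaggagtttacagaaACCTTTAAAACC
Stfa3, chr16:36455415-36455444, minus strand: aggaggagcttacagataACCTTTAAAACC
The word begins 12 bases before the RefSeq start in Cstdc5 and between 32 and 36 bases before it in the other members. It occurs on the strand of the gene in 10 of 32851 promoter windows (0.0304%), and 9 of the 11 cluster genes with a window hold it. The word was chosen from these sequences, and in GENCODE M21 the first exons of Cstdc5, Stfa1 and Stfa2 reach over these bases.

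Further motifs were searched on both strands of the promoter windows. TTGCNNAA, a form of the C/EBP motif, was found in Cstdc5 and Stfa1 and in no other member, but also in Csta3 and Cstdc3, cluster genes without a count, and in 10.8% of all windows. GAGGAA, a core bound by PU.1 and other ETS factors, and TGTGGT, the RUNX core, were found in all 5 members, against 28.3% and 16.8% of all windows. They were also in 9 and 10 of the 11 cluster genes with a window, among them Cstdc4 and Gm7260, which had no count. The 250 bases before the start are 69.9% to 89.4% identical between members, so the matches in the 5 members are not independent. AGGTCA, the core element of retinoid and other nuclear receptors, was found among the members in Stfa2 alone, in the nearby Csta1 and Csta2, and in 16.3% of all windows. TATAAA was found in no member and in 13.6% of all windows. A match describes letters and not binding.

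Of 15 cystatins outside the stefin genes, 4 were listed. Cst7, which encodes cystatin F, an inhibitor carried to the lysosomes of immune cells, had 387, 2550 and 1948 counts in control, TR1 and TR9. It was called higher in both, with log2 ratios of FPKM of 2.69 and 2.43. Cst3, the gene of the secreted inhibitor cystatin C, had 715, 997 and 624 counts and was not called, with log2 ratios of 0.45 and -0.10. Unlike the stefin A members, both were abundant in control. Kng1 and Fetub had 2 counts or fewer in every library.

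The cysteine cathepsins, the protease family that stefins act on, were read from a list of 10 genes, all of which were listed. Whether stefins inhibit each of these 10 was not tested. In TR1, 1 was called higher and 3 lower, where 8.09% and 13% of all genes were, with a median log2 ratio of FPKM of -0.71 against -0.29 over all genes tested. In TR9, 1 was called higher and 2 lower, where 9.37% and 10.8% of all genes were, with a median of -0.56 against -0.12 over all genes. Ctsc, the dipeptidyl peptidase that activates granule serine proteases, was the cathepsin called lower in both, with 313, 77 and 119 counts in control, TR1 and TR9 and log2 ratios of FPKM of -2.05 and -1.30.

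Ctss, a cathepsin of antigen-presenting cells, was called lower in TR1 only, with 195, 83 and 106 counts. Ctsf was also called lower in TR1, with 26, 1 and 13 counts. Ctsb, among the most abundant lysosomal cathepsins, had 1377, 803.02 and 641 counts and was called lower in TR9, at a log2 ratio of FPKM of -1.01 that lies close to the threshold. With another scaling of the libraries (TMM) the call of Ctsb was lost. Whether the TR1 and TR9 changes differ was read from the comparison of TR9 with TR1, in which none of these 3 was called. A missing call does not show equal levels. The log2 ratios of counts there were 3.82 (1.08 to 9.23) for Ctsf, 0.47 (0.04 to 0.90) for Ctss and -0.21 (-0.36 to -0.05) for Ctsb.

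Ctsw, a cathepsin of cytotoxic lymphocytes, was called higher in TR1, with 8, 49 and 14 counts, and Ctso was called higher in TR9, with 73, 101 and 189. In TR9 against TR1, Ctso was called higher at a log2 ratio of FPKM of 1.03 and Ctsw lower at -1.69. Ctsl, a lysosomal endopeptidase that stefins bind, had 106, 150 and 189 counts and was not called. Ctsh (222, 148 and 165 counts), Ctsk (10, 3 and 2) and Ctsz (764, 1089 and 660) were not called either. Legumain (Lgmn), an asparaginyl protease that acts on cathepsins, had 81, 12 and 21 counts and was called lower in both, with log2 ratios of FPKM of -2.78 and -1.85.

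**Figure D4:**
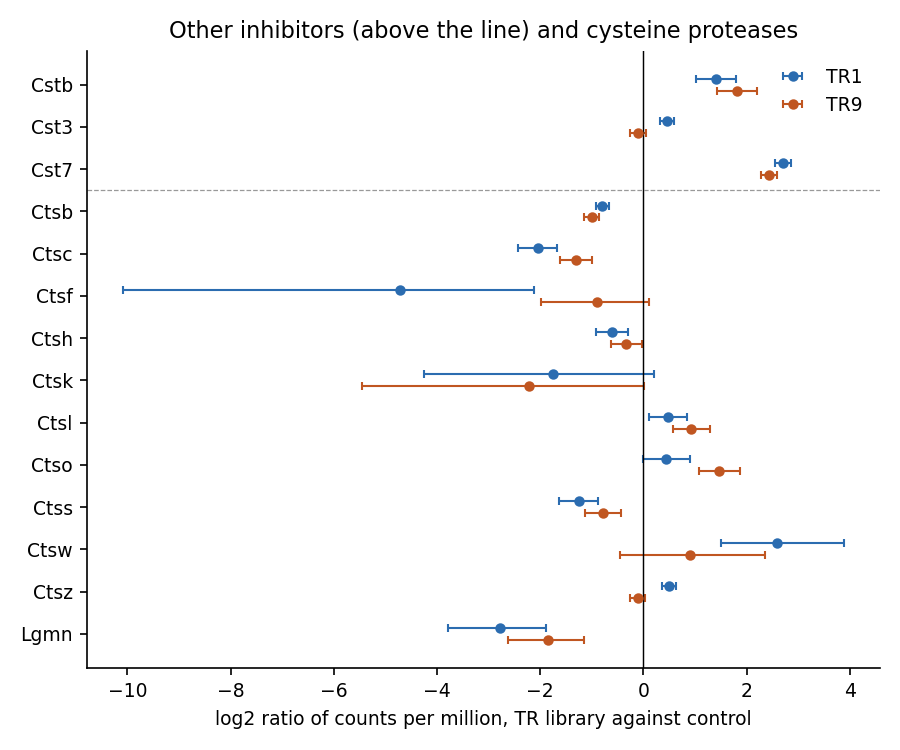
Log2 ratio of CPM against control (horizontal axis) in TR1 and TR9 for 3 inhibitors outside the stefin A family (above the dashed line) and for the 10 cysteine cathepsins and legumain (below it), with 95% exact intervals that cover counting error only. Cstb and Cst7 lie to the right of 0 in both libraries, and Ctsc and Lgmn lie to the left in both.

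Protease inhibitors of other families moved in both directions. Of 23 such genes, 7 were called higher and 6 lower in TR1, and 8 higher and 4 lower in TR9, with median log2 ratios of FPKM of 0.18 and 0.27. Over all genes 8.09% were called higher and 13% lower in TR1, and 9.37% and 10.8% in TR9. In TR9 against TR1, 5 of the 23 were called higher and 3 lower, where 4.34% and 2.31% of all genes were. Slpi, an inhibitor of neutrophil elastase, had 57, 747 and 1297 counts in control, TR1 and TR9. Serpinb1a, which also inhibits neutrophil serine proteases, had 525.97, 3958 and 2051. Wfdc21 (4, 362 and 242 counts) and Spint2 (227, 727 and 603) were likewise called higher in both, and Timp3, an inhibitor of metalloproteases, was called lower in both, with 589.3, 7.28 and 4.17. These 5 were named for having the same direction in both TR libraries.

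In bulk samples, more cells of a type and more RNA per cell cannot be told apart, so the make-up of each library is given beside the family's levels. Most granulocyte genes were called higher in the TR libraries. Of 5 primary granule genes, 5 were called higher in TR1 and 4 in TR9, and of 17 later granulocyte genes, 15 were called higher in TR1 and 12 in TR9, against 8.09% and 9.37% of all genes. Mpo, Mmp9, Cxcr2, Retnlg, Padi4 and Fpr1 were not called in TR9. In TR9 against TR1, 2 of those 17 were called higher and 8 lower, where 4.34% and 2.31% of all genes were. The 8 thus had a different order of the TR libraries from the stefin A members, and the 2, Ngp and Camp, had the same order.

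The highest granulocyte genes by FPKM in TR1 were S100a9 (12864), Elane (9103), S100a8 (8188), Mpo (7585) and Chil3 (5780). In TR9 they were Elane (13178), Ctsg (4847), Mpo (3514), Ngp (2833) and S100a8 (2414). Summed over 8 neutrophil markers, secondary granule genes among them, FPKM was 97.8 in control, 22103 in TR1 and 8697 in TR9, a sum that S100a8 and S100a9 dominated. Over the other 6 markers it was 34.5, 1051 and 4510, with TR9 highest, so the order of the TR libraries turned with those 2 genes. Most of that TR9 sum was Ngp (2833) and Camp (1647). In TR9 against TR1, 2 of the 8 markers were called higher and 5 lower, where 4.34% and 2.31% of all genes were. The part of neutrophil RNA in the stefin A levels was not tested. Ngp and Camp, both of secondary granules, were called higher in TR9 than in TR1, with 72, 3696 and 16860 counts of Ngp and 9, 1165 and 4842 of Camp in control, TR1 and TR9.

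Keratinocytes are a known source of stefin A. Of 7 keratinocyte markers, the defining Krt5, Krt14 and Krt1 were at 0 in all 3 libraries, and the summed FPKM was 3.07 in control, 9.60 in TR1 and 19.4 in TR9. Most of the TR9 sum was Dsp, a desmosome gene, with 14, 203 and 663 counts in control, TR1 and TR9. Its part in the stefin A levels was not tested. Markers of monocytes and macrophages summed to 167, 582 and 326 FPKM in control, TR1 and TR9, mostly F13a1, and without it to 68.7, 39.3 and 24.3. Of these 7 markers, 2 were called higher and 4 lower in TR1, where 8.09% and 13% of all genes were. In TR9, 1 was called higher and 5 lower, where 9.37% and 10.8% of all genes were. Those of B cells summed to at most 5.2 in any library.

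Other lineages were richer in control, the library without stefin A reads. Summed FPKM in control, TR1 and TR9 was 1593, 3.45 and 4.92 for erythroid markers, and 489, 2.73 and 0.90 for megakaryocyte markers. Mast cell and basophil markers gave 977, 77.2 and 87.7, eosinophil markers 700, 13.9 and 8.71, and stem and progenitor markers 207, 73.5 and 75.8. In each of these 5 lists both TR sums were below control, though not every marker was. Of 6 stem and progenitor markers, 5 were called lower in TR1 and 1 higher, Flt3, with 327 counts in control and 792 in TR1. In TR9, 4 were called lower. Of 5 eosinophil markers, 3 were called lower in TR1 and 4 in TR9. Over all genes 13% were called lower in TR1 and 10.8% in TR9, and 8.09% higher in TR1. The part of these lineages in the family's levels was not tested.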

How the data were processed

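RNA-seq of 3 libraries was used, 1 per group. After read filtering, the authors used BWA and Bowtie for mapping and RSEM for quantification, and per the submitters' processing notes the build was mm9. Software versions, the annotation and strandedness are not given in the sources used here. The authors deposited for each listed gene the expected count (an estimated count, not normalized) and the FPKM, scaled by gene length and library total. The library totals were 5488778 (control), 5571409 (TR1) and 5129662 (TR9), where 3 counts equal 0.547, 0.538 and 0.585 CPM. An unlisted gene was taken as 0.

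IDs were named by the RefSeq table of GRCm38.p6, which matched 16698 of 16742. Groups came from the labels. Rounded counts of library pairs entered an exact Poisson test conditional on their sum (scipy 1.17.1), adjusted by Benjamini-Hochberg over every gene that either library lists. Calls needed a false discovery rate no higher than 0.001 and a log2 ratio of FPKM, floored at 0.01, of at least 1 in size. This was tested on simulated Poisson counts without variation between mice. The rule recovered 187 of 200 changes at a log2 ratio of 2 and 200 of 200 at 4. As those counts met the assumption of the test, they do not show how calls behave when mice vary. Ratios carry 95% exact (Clopper-Pearson) intervals, and a fold against 3 counts or fewer in a library at 0 is a lower bound computed with 3 counts. Alternatives were TMM scaling and an exact test of edgeR 4.0.16, other floors, filters and thresholds.

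The members and lists were chosen with earlier results of these data known. Named genes were all members, listed genes of the stefin, cystatin and cathepsin lists with an FPKM of at least 1, up to 5 each of the other inhibitors and neighbours called in the same direction in both TR libraries with an FPKM of at least 10, the 5 highest granulocyte genes in each TR library, and the 10 genes most like the family sum. Genes named beyond this rule (Umodl1, Minar1, Csta1, Kng1, Fetub, Dsp, Camp and F13a1 among them) were chosen after their values were seen. Cstad, whose symbol begins like those of stefins, is no stefin and was left out. Protein sequences were not analysed here.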

Additional observations from a re-analysis of the deposited data

How the results depend on the processing

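No paired analysis was possible because each group has 1 library, and leaving out a library was not possible for the same reason. Of 61 alternatives for the main counts and sums, 46 stayed close and 15 moved. The 2 members called in TR9 against control became 1 under edgeR's exact test with an assumed coefficient of variation of 0.2, as did the 2 in TR9 against TR1. Genes called in TR1 against control numbered 3438, and 1818 with an absolute log2 ratio of at least 2 or 1649 with edgeR. In TR9 against control the numbers were 3293, 1666 and 1547, and in TR9 against TR1 they were 1044, 418 and 282. With TMM scaling, cathepsins called in TR9 against control went from 1 higher and 2 lower to 2 higher and 1 lower, and with edgeR to 0 and 0. In TR9 against TR1 the 1 cathepsin called higher became 0 with TMM scaling and 0 with edgeR, and the 1 called lower became 0 with edgeR. In data simulated for TR9 against control, edgeR's test recovered 0 of 200 changes at a log2 ratio of 2 and 198 of 200 at 4. Changes as small as these cathepsin ratios were not simulated. The simulated data also held far fewer changed genes than were called here, so they do not show what the losses mean. The cause of the changes under the alternatives was not tested. TMM scaling moved log2 ratios by 0.25, 0.11 and 0.13 in the 3 comparisons, and the share of calls that were lower from 61.7% to 48.4% in TR1 and from 53.6% to 46.7% in TR9, so that higher calls became the larger part in both. The log2 ratio of the family sum between TR9 and TR1 ranged from 4.32 to 5.0 over its alternatives. A sum of FPKM gave no ratio against control, where all members were at 0. Adding 1 to FPKM lowered the log2 ratio of Cstdc5 in TR9 against TR1 from 5.16 to 4.35. Of 20 alternatives for single members 5 moved, and 1 changed sign, that of Stfa2l1 in TR9 against TR1 (1 count in each), from 0.12 to -0.015 with TMM scaling. With 3 counts as the floor, levels under 0.538 to 0.585 CPM could not be seen.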
